A study of Mus musculus with 4 samples.

Results

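The expression of 57 genes of DNA replication and repair was followed in mouse cells undergoing reprogramming. The genes were taken by symbol from a list that was chosen with earlier results of these data known. It covers origin licensing and firing, polymerases and fork factors, nucleotide supply, replication-coupled chromatin, E2F factors with cyclin E, homologous recombination and the fork checkpoint. All 57 were found among the 22369 genes of the expression table, and all 57 passed the filter on low values, which left 19547 genes for testing.

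OG2MEF cells, mouse embryonic fibroblasts with a green fluorescent reporter driven by Oct4, were sampled on day 9 of reprogramming. The labels give 2 libraries as wild-type SOX17 and 2 as SOX17-V118M, a missense form of this endodermal transcription factor. The protocol describes retroviruses for Sox2 and Klf4, to which OCT4, GFP, SOX17 or its V118M form was added, followed by embryonic stem cell medium containing LIF and vitamin C. Which set of viruses each library received is not spelled out, and nothing says that the replicates were separate cultures, so the p-values reflect only how far these samples vary, and that variation may be technical. These are bulk libraries of mixed cultures, in which fewer cells of a type and less RNA per cell cannot be told apart.

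Before a cell can copy its genome, the origin recognition complex, CDC6 and CDT1 load the ring-shaped MCM helicase onto DNA in the G1 phase. The kinase CDC7 with DBF4 then acts on the loaded ring, and CDC45 and the GINS complex join it. Polymerases, the PCNA clamp and the ligase LIG1 build the new strands. Many of these genes are transcribed in a wave at the G1 to S transition, driven by E2F factors, so their RNA is widely used as a mark of cycling cells. Fibroblasts under reprogramming are known to pass through repeated fast divisions.

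The values in the table are the authors' normalized scores, whole numbers with nearly the same distribution in every library, and their sequencing depth is unknown. Column totals lay between 12855482 and 12859613, and values are given throughout as replicate 1 and replicate 2. V118M replicate 2 was the outlying library. Its Pearson correlations with the rest were 0.954 to 0.964 over 12661 well-expressed genes (mean log2 of 5 or more), and those among the other 3 were 0.986 to 0.990. All 14 fibroblast markers listed were present, with summed values of 135382 and 133416 in wild-type libraries compared with 138472 and 108840 in V118M. The low sum of V118M replicate 2 was that of 1 collagen gene, Col3a1, at 61186 in 3 libraries, the highest value of the table, and at 29496 in that one. Without it the sums were 74196 and 72230 against 77286 and 79344. Of 12 pluripotency markers, Dppa4 and Tcl1 were at 0 in all 4 libraries, and the Sox17 values were 3484 and 2880 against 3016 and 2396.

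Most replication and repair genes were slightly higher in V118M. Of the 57, 52 had a log2 fold change above 0 (the V118M mean of log2(value + 1) less the wild-type mean), against 49.2% of all genes tested, while 4 were below it and Ung was at 0.00. Their median log2 fold change was 0.22, a 1.17-fold difference, where the median of all genes tested was 0.00. In 27 of them both V118M values lay above both wild-type values, which is 47.4% of the group against 13.2% of all genes tested. Only Gins2 had both V118M values below both wild-type values, where 14.8% of all genes did. With 2 libraries against 2, an exact two-sided permutation test of 1 value cannot go below p = 0.333.

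No single gene of the group passed the test. With limma and Benjamini-Hochberg adjustment, 0 of the 57 had an adjusted p under 0.05, as did 0.00% of all genes tested, and the lowest adjusted p in the group was 0.951. An unadjusted p under 0.05 was reached by 5 genes, all higher in V118M, against 2.31% of all genes tested in that direction. The 5 were Cdt1, Mcm6, Lig1, Tk1 and Rad51ap1. In the opposite direction there were 0, against 1.70% of all genes tested. Leaving out wild-type replicate 1 or wild-type replicate 2 gave 0 such genes in either direction, where 1.16% and 1.42% of all genes tested passed in those fits. Leaving out V118M replicate 1 gave 8 of 57 and leaving out V118M replicate 2 gave 3 of 57, both smaller shares than the 26.8% and 12.0% of all genes in the same fits.

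The difference between the 2 wild-type libraries was of the same size as that between the groups. Wild-type replicate 1 was above replicate 2 in 50 of the 57 genes, where this held for 45.4% of all genes tested, and the median difference was 0.29 on the log2 scale. The median log2 fold change was 0.13 when wild-type replicate 2 was left out and was 0.34 when wild-type replicate 1 was left out. Of the 57 genes, 42 were higher in V118M in the first of these fits and 54 in the second, against 48.8% and 48.3% of all genes tested. Leaving out V118M replicate 1 gave 46 higher genes, against 52.9%, and leaving out V118M replicate 2 gave 50, against 46.5%. V118M replicate 1 exceeded both wild-type libraries in 43 of the 57 genes, against 28.1% of all genes tested. V118M replicate 2 exceeded both in 37, against 42.5%. Without V118M replicate 2 the median was 0.27, and 43 genes were higher without overlap, against 28.2% of all genes tested in that fit. Leaving out wild-type replicate 1 also gave 43, against 21.5%. Leaving out wild-type replicate 2 gave 28, against 25.7%, and leaving out V118M replicate 1 gave 37, against 43.0%.

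**Figure D1:**
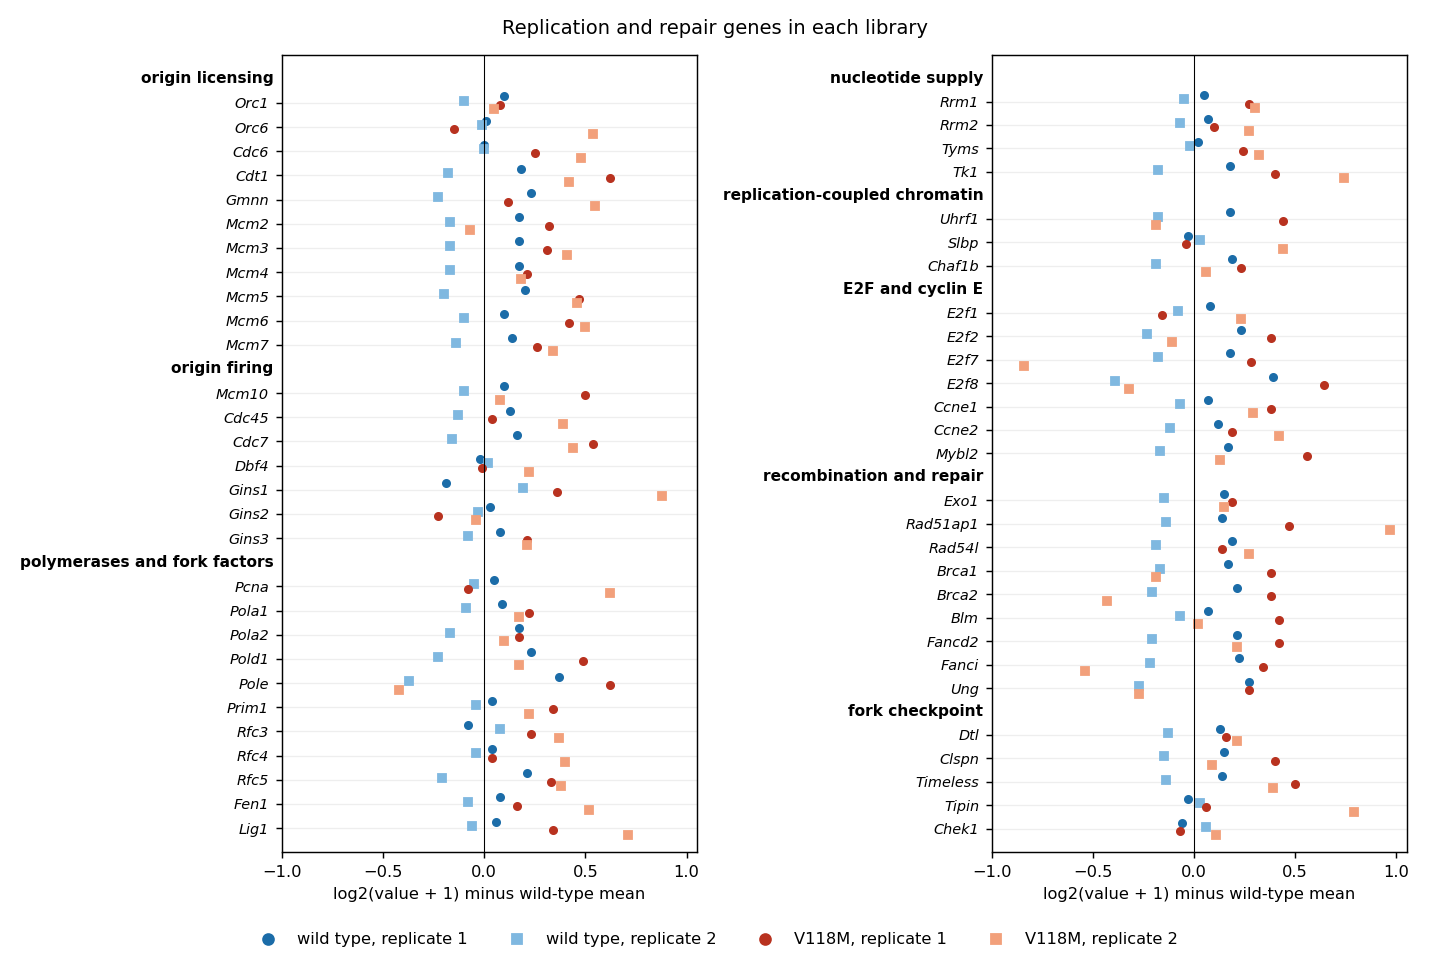
Each row is 1 gene and each point 1 library, plotted as log2(value + 1) minus the mean of the 2 wild-type libraries, with circles for replicate 1 and squares for replicate 2. Both V118M points lie to the right of both wild-type points in 27 of the 57 genes, and wild-type replicate 1 lies to the right of replicate 2 in 50.

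Origin licensing genes were all higher in V118M on average. The 11 genes gave 0.34 as their median log2 fold change, and 7 were higher without overlap, against 13.2% of all genes tested. Mcm6, a subunit of the replicative helicase on chromosome 1 (128331590 to 128359664, mm10), had values of 1167 and 1016 in wild-type libraries compared with 1453 and 1544 in V118M. These averaged 1091.5 ± 107 and 1498.5 ± 64.3 (SD, n = 2 each), and the log2 fold change reached 0.46 ± 0.15 (standard error; limma, unadjusted p = 0.0280, adjusted p = 0.951). Its partner Mcm5 (chromosome 8, 75109569 to 75128439) was at 695 and 524 against 838 and 832, again with no overlap. Mcm3 stood at 868 and 690 against 959 and 1030, Mcm7 at 1340 and 1097 against 1453 and 1534, and Mcm4 at 816 and 641 against 834 and 818. For Mcm4 the V118M values were only just above wild-type replicate 1. Mcm2 overlapped, at 666 and 523 against 737 and 563. Of the 6 ring subunits 5 were higher without overlap, against 13.2% of all genes tested, and the 6 log2 fold changes ran from 0.13 to 0.47. In each of the 6, wild-type replicate 1 was above replicate 2, by a median of 0.34 on the log2 scale. Without wild-type replicate 2 the log2 fold changes of Mcm4 and Mcm2 were 0.02 and -0.05, and those of the others 0.16 to 0.36.

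The helicase loaders behaved unevenly. Cdt1, which brings the ring to the origin (chromosome 8, 122568015 to 122573554), was at 251 and 196 in wild-type libraries compared with 342 and 298 in V118M. Both V118M libraries were above both wild-type libraries, with a log2 fold change of 0.52 ± 0.20 (standard error; limma, unadjusted p = 0.0470, adjusted p = 0.951). The loading ATPase gene Cdc6 was at 128 and 128 against 152 and 179. Geminin, encoded by Gmnn, holds CDT1 inactive outside G1, and it was at 110 and 80 against 102 and 138, so its groups overlapped. Orc1, the largest subunit of the origin recognition complex, had nearly equal values of 85 and 74 against 84 and 82. Its small subunit Orc6 was at 320 and 317 against 286 and 465, high only in V118M replicate 2.

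E2F sites near the start of these genes were looked up because the genes are known targets of this family. Promoters came from RefSeq (build GRCm38.p6), which held 48 of the 57 genes with 56 start sites, and the 250 bases before each start were searched on both strands for TTTGGCGC, TTTCGCGC, TTTCCCGC, TTTGCCGC and TTTCCGCC. Matches can overlap. At least 1 was present at 14 of the 56 starts, or 25.0%, against 2.73% of all 32851 promoters and 4.07% of those of genes tested. The CCAAT box was present in 55.4% of the group's promoters against 33.8% of all promoters and 34.9% of those of genes tested. The cell cycle homology region, TTTGAA or TTCGAA, was present in 16.1%, between the 13.6% of promoters of genes tested and the 17.1% of all promoters. The median log2 fold change was 0.20 in the 13 genes with an E2F match and 0.24 in the 35 without. The windows below are read 5′ to 3′ on the gene's strand with the matched bases in capitals. They show 3 genes that were higher without overlap, and E2f7 and Brca2, which had negative log2 fold changes. All have an E2F match, but its letters differ. On either strand they are TTTCGCGC and TTTGGCGC in Mcm5 and Mcm6, TTTGGCGC in Pola1, and TTTCCCGC in E2f7 and Brca2. The letters did not sort the genes by direction. TTTCCCGC was also the match in Cdc6, Gins3 and Mcm7, which were higher without overlap. Orc1 and Uhrf1, with TTTCGCGC, overlapped between the groups. The windows lie at chr8:75109347-75109376 (plus strand), chr1:128359795-128359824 and chr1:128359734-128359763 (minus strand), chrX:93632275-93632304 (minus strand), chr10:110745230-110745259 (plus strand) and chr5:150522442-150522471 (plus strand).
Mcm5: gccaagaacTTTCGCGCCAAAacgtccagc
Mcm6, far: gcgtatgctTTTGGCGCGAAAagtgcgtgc
Mcm6, near: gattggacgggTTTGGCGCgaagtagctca
Pola1: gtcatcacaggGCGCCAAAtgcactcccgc
E2f7: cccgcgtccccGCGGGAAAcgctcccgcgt
Brca2: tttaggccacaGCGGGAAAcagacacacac
Mcm5 and the far window of Mcm6 each hold 2 overlapping matches, beginning 153 and 110 bases before the start.

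Origin firing genes numbered 7, with a median of 0.21 on the log2 scale, 6 of them higher and 1 lower. The kinase gene Cdc7 was at 146 and 117 for wild type against 191 and 178 in V118M, without overlap, while its activator Dbf4 was at 546 and 562 against 549 and 647. Gins1 was at 68 and 89 against 100 and 144, so both V118M values were above those of wild type. Its complex partner Gins3 was at 44 and 39 against 48 and 48, and the third subunit, Gins2, was lower at 672 and 642 against 560 and 637. The GINS subunits measured thus did not share 1 direction, with log2 fold changes of 0.62 ± 0.28, 0.21 ± 0.27 and -0.14 ± 0.15 (± standard error) for Gins1, Gins3 and Gins2. Cdc45 was at 214 and 178 against 200 and 256, and Mcm10, which helps to open the helicase, at 254 and 221 against 336 and 250. In both of these the groups overlapped.

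All 11 polymerase and fork genes were higher on average, by a median of 0.28. Without overlap 6 of the 11 were higher, against 13.2% of all genes tested. Lig1 encodes the ligase that seals Okazaki fragments (chromosome 7, 13277283 to 13311433). It was at 706 and 653 in wild-type libraries compared with 860 and 1113 in V118M, with both V118M libraries above. This is a log2 fold change of 0.53 ± 0.18 (standard error; limma, unadjusted p = 0.0335, adjusted p = 0.951). The flap nuclease gene Fen1 was at 380 and 340 against 402 and 516, and the primase gene Prim1 at 144 and 136 against 178 and 163. Pola1, the catalytic subunit of polymerase alpha, was at 671 and 596 against 739 and 710. These 3 did not overlap between the groups, whereas Pola2, the second subunit of polymerase alpha, did at 278 and 220 against 278 and 266.

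The PCNA clamp and its loader differed among themselves. Pcna was at 1674 and 1564 in wild-type libraries compared with 1534 and 2490 in V118M, so its mean difference came from V118M replicate 2, and its log2 fold change was -0.08 without that library. Of the clamp loader genes, Rfc3 was at 175 and 196 against 218 and 240 and Rfc5 at 444 and 330 against 483 and 497, both without overlap. Rfc4 was at 230 and 217 against 230 and 295, tied at its lower end. Pold1, the catalytic subunit of polymerase delta, was at 377 and 274 against 452 and 362. Pole, the corresponding subunit of polymerase epsilon, was at 521 and 312 against 622 and 301, with a larger gap between replicates than between groups. This is a log2 fold change of 0.10 ± 0.42 (standard error), which became -0.42 when V118M replicate 1 was left out and -0.27 when wild-type replicate 2 was.

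Nucleotide supply was the one sub-function in which every gene, here 4, was higher without overlap, against 13.2% of all genes tested. Ribonucleotide reductase makes deoxynucleotides, and its large subunit Rrm1 was at 1547 and 1450 in wild-type libraries compared with 1812 and 1849 in V118M. The small subunit Rrm2 was at 995 and 900 against 1012 and 1140. Thymidylate synthase, encoded by Tyms, was at 222 and 216 against 258 and 273. The salvage enzyme gene Tk1 (chromosome 11, 117815526 to 117826092) was at 310 and 242 against 362 and 457, with a log2 fold change of 0.57 ± 0.21 (standard error; limma, unadjusted p = 0.0432, adjusted p = 0.951). For Rrm2 the margin was small, since the lower V118M value of 1012 was close to the higher wild-type value of 995.

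The 3 genes that tie chromatin to replication overlapped between the groups. Uhrf1, which reads hemimethylated DNA behind the fork, was at 967 and 758 in wild-type libraries compared with 1165 and 752 in V118M. Slbp, which binds the stem-loop of histone mRNA, was at 543 and 568 against 540 and 756, and Chaf1b, of the chromatin assembly factor CAF-1, was at 246 and 190 against 254 and 225. Their median log2 fold change of 0.14 became -0.04 without wild-type replicate 2.

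E2F and cyclin E genes gave a median of 0.16 over 7 genes, which became -0.05 without wild-type replicate 2. Without overlap 2 of the 7 were higher, against 13.2% of all genes tested. Those 2 were the cyclin E genes, whose proteins activate CDK2 at the start of S phase. Ccne1 was at 326 and 294 for wild type against 402 and 380 in V118M, and Ccne2 at 488 and 414 against 513 and 602. The activator E2f1 was at 154 and 137 against 130 and 171, and E2f2 at 126 and 91 against 140 and 99. E2f7 and E2f8 encode repressors of E2F targets that accumulate late in S phase. E2f7 was at 141 and 110 against 151 and 69, and E2f8 at 170 and 98 against 202 and 103, so replicate 1 was above replicate 2 in both groups. The mean of E2f7 was lower in V118M, with a log2 fold change of -0.28 ± 0.41 (standard error), but it was 0.28 without V118M replicate 2. Mybl2, a cofactor for later cell cycle genes, was at 254 and 200 against 333 and 246 and overlapped.

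Recombination and repair genes were the most divided. Of 9, 6 were higher, 2 were lower and Ung was equal, with a median of 0.17. Without overlap 2 of the 9 were higher, against 13.2% of all genes tested. Rad51ap1, a factor of homologous recombination (chromosome 6, 126923050 to 126939587), had the largest difference of the 57 genes, at 93 and 76 in wild-type libraries compared with 117 and 166 in V118M. This is a log2 fold change of 0.72 ± 0.26 (standard error; limma, unadjusted p = 0.0398, adjusted p = 0.951). The resection nuclease gene Exo1 was at 190 and 155 against 196 and 191, just above. Rad54l, a motor protein of strand exchange, overlapped at 140 and 108 against 136 and 148.

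Brca1 and Brca2, which act in homologous recombination, split by library. Brca1 was at 241 and 190 in wild-type libraries compared with 278 and 188 in V118M, and Brca2 at 404 and 301 against 454 and 258. In each, V118M replicate 1 was the highest library and V118M replicate 2 the lowest. The Fanconi genes Fancd2 and Fanci, which work as a pair at DNA crosslinks, were at 156 and 116 against 180 and 156 and at 129 and 95 against 140 and 76. The helicase gene Blm was at 216 and 196 against 276 and 208, and Ung, which removes uracil from DNA, was at 44 and 30 in both groups. Without V118M replicate 2 the log2 fold changes of Brca2 and Fanci were 0.38 and 0.34, where they were -0.03 and -0.10 over all 4 libraries.

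Fork checkpoint genes had a median of 0.24 over 5 genes, and 3 were higher without overlap, against 13.2% of all genes tested. Timeless, which with TIPIN steadies the stalled fork, was at 176 and 144 in wild-type libraries compared with 225 and 209 in V118M. Tipin was at 298 and 312 against 318 and 529, so its excess lay mostly in V118M replicate 2. Dtl, the substrate receptor that marks CDT1 for destruction in S phase, was at 449 and 377 against 460 and 477, and the adaptor gene Clspn was at 240 and 196 against 286 and 231. The checkpoint kinase gene Chek1 hardly differed, at 248 and 268 against 246 and 278, with a log2 fold change of 0.02 ± 0.17. (standard error)

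**Figure D2:**
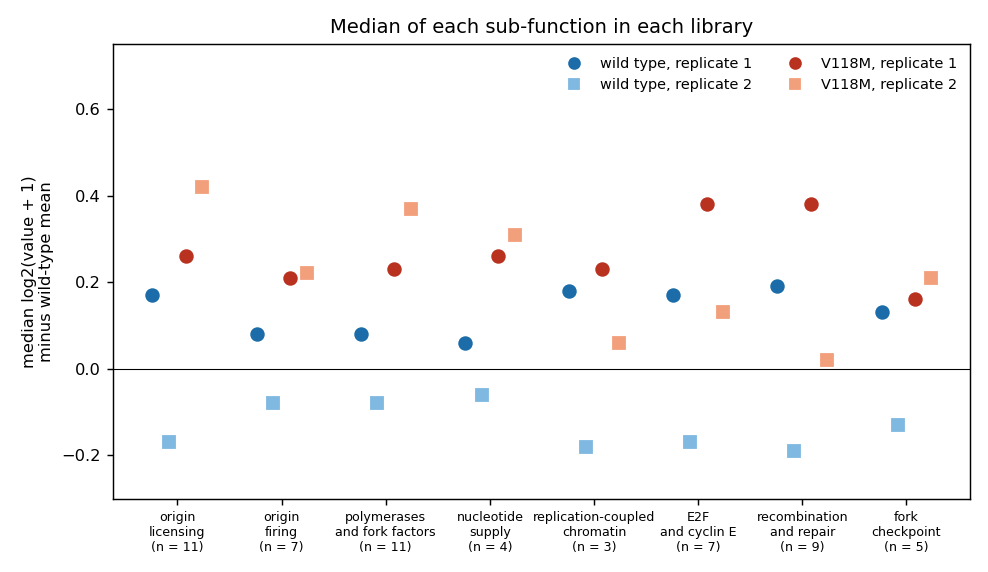
Points give, for each sub-function and library, the median over its genes of log2(value + 1) minus the wild-type mean, with the number of genes under each name. Wild-type replicate 2 is lowest in all 8 sub-functions, and for recombination and repair the V118M medians are 0.38 in replicate 1 and 0.02 in replicate 2.

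The sub-functions ordered the 2 V118M libraries differently. In origin licensing the median over the wild-type mean was 0.26 in V118M replicate 1 and 0.42 in V118M replicate 2. For polymerase and fork genes it was 0.23 and 0.37. E2F and cyclin E genes went the other way, at 0.38 and 0.13, as did recombination and repair genes at 0.38 and 0.02. Wild-type replicates 1 and 2 were 0.37 apart in the median of the recombination and repair genes and 0.33 apart for origin licensing. For nucleotide supply the medians were 0.26 and 0.31, for origin firing 0.21 and 0.22, for the fork checkpoint 0.16 and 0.21, and for replication-coupled chromatin 0.23 and 0.06. Over single genes, the difference between the libraries varied with transcript length. The sub-functions did not all follow it, since the fork checkpoint genes had a long median transcript of 4.57 kb and the chromatin genes a short one of 2.92 kb. Across the 57 genes, the difference of V118M replicate 1 minus replicate 2 had a Spearman correlation of 0.650 with the length of the longest annotated transcript, and that of wild-type replicate 1 minus replicate 2 had 0.329. Across the 19503 tested genes with a length the same correlations were 0.406 and 0.174. All points share the libraries, so these correlations are descriptions only. The longest transcripts of Brca2, Exo1 and Pole measured 10.72, 7.80 and 7.16 kb, and those of Orc6, Pcna and Tipin 1.47, 1.52 and 1.84 kb.

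**Figure D3:**
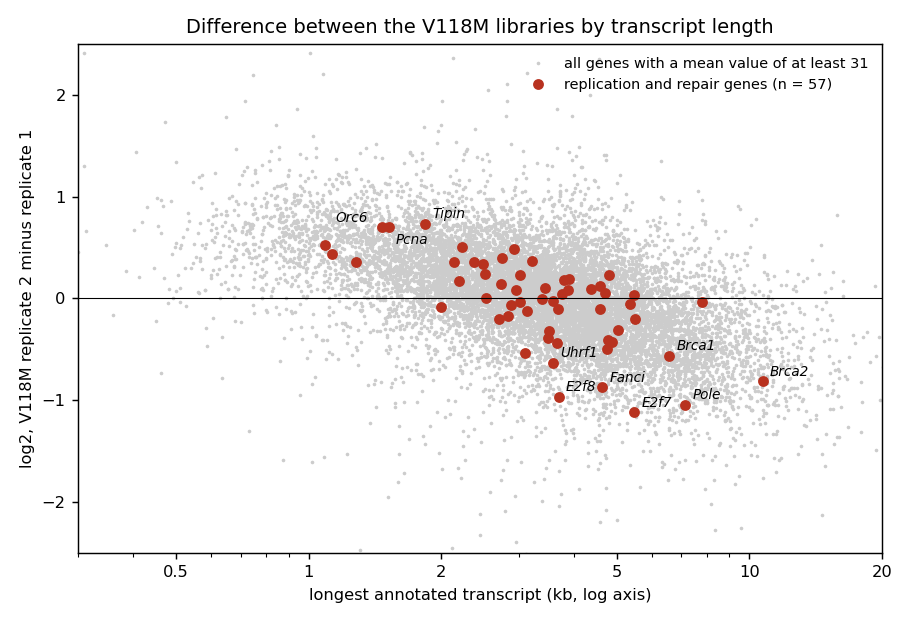
The x axis is the longest annotated transcript in kb on a log axis and the y axis the log2 difference of V118M replicate 2 minus replicate 1, with the 57 genes in red over all genes with a mean value of at least 31 in grey (90 of 12789 lie beyond the axes). Short transcripts such as those of Tipin, Orc6 and Pcna lie above 0, and Pole, E2f7, E2f8, Fanci and Brca2 lie below it.

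Genes of both length classes were higher in V118M. Split at their median length of 3.49 kb, the 29 shorter genes had a median log2 fold change of 0.28 with 16 higher without overlap, and the 28 longer genes one of 0.20 with 11. For all tested genes split at the same length, the medians were 0.08 and -0.09, and 14.5% and 11.2% were higher without overlap. V118M replicate 2 exceeded both wild-type libraries in 24 of the 29 shorter and 13 of the 28 longer genes, against 53.2% and 26.4% of all genes in these classes. V118M replicate 1 did so in 18 of 29 and 25 of 28, against 23.4% and 35.2%. When a smooth trend on transcript length and GC content was removed from each library, 54 of the 57 genes were higher, against 52.2% of all genes tested. The median of the 57 was then 0.27, and 35 were higher without overlap, against 18.7% of all genes tested in that fit. Recombination and repair genes then had a median of 0.27, compared with 0.17 before, and fork checkpoint genes one of 0.33. Origin licensing genes had one of 0.32, compared with 0.34 before, and origin firing genes one of 0.20, compared with 0.21.

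Related genes outside the 57 were examined from lists of the same pathways. Of 42 other replication factors, 35 were higher and 7 lower, and the median on the log2 scale was 0.22. Against 13.2% and 14.8% of all genes tested, 12 of the 42 were higher and 1 lower without overlap. None passed the limma test after adjustment, and 1 had an unadjusted p under 0.05, Chaf1a, the large CAF-1 subunit, named after its values were seen, at 320 and 305 in wild-type libraries compared with 432 and 426 in V118M. The dUTPase gene Dut was at 483 and 402 against 482 and 901, and Rnaseh2a, of the nuclease that removes RNA from DNA, at 452 and 462 against 516 and 776. Lowest were Pold4, the small polymerase delta subunit, at 342 and 444 against 314 and 288, and Mtbp at 193 and 209 against 208 and 152.

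Among 35 other repair factors higher and lower genes were nearly balanced, with 18 higher, 17 lower and a median of 0.02. Without overlap 6 were higher, or 17.1% against 13.2% of all genes tested, and 2 were lower, against 14.8%. Xrcc2, a recombination factor, was at 76 and 74 against 92 and 105, higher in both V118M libraries. The damage kinase gene Atm was at 622 and 470 against 590 and 282, and the ligase gene Lig3 at 1555 and 1304 against 1550 and 844, both low in V118M replicate 2. None of these 35 passed after adjustment. The medians of 0.22 and 0.02 for the replication and repair lists are given side by side, and their difference was not tested.

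**Figure D4:**
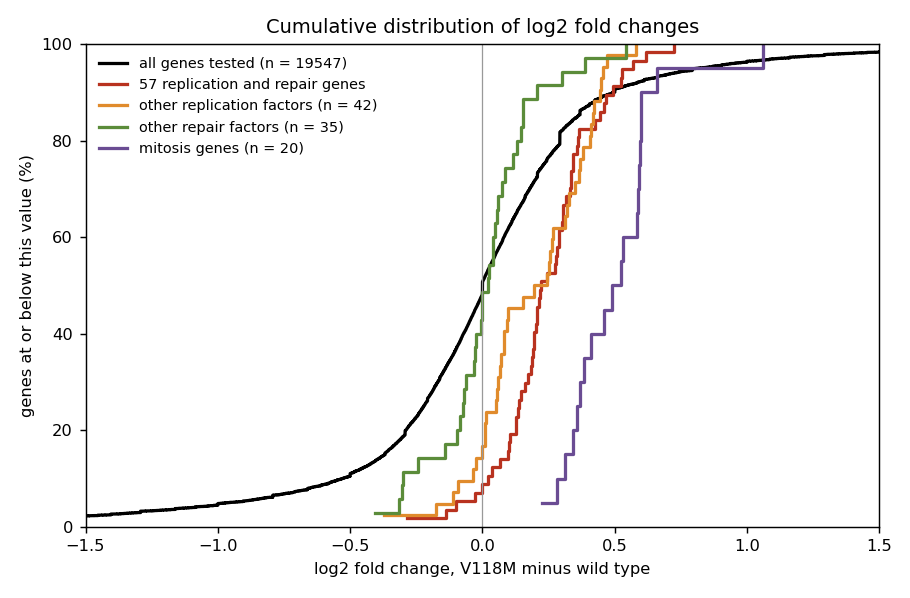
Curves give the percentage of genes at or below each log2 fold change (V118M minus wild type) for all genes tested, the 57 genes, 42 other replication factors, 35 other repair factors and 20 mitosis genes, with the x axis cut at -1.5 and 1.5. The curve of the 57 genes crosses 50% at 0.22, that of the other repair factors at 0.02 and that of the mitosis genes at 0.51.

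Regulators of E2F included genes of both directions. Of 22 genes for RB proteins, other E2F factors, their partners, D-type cyclins, G1 kinases and CDK inhibitors, 15 were higher and 7 lower, with a median of 0.06. Without overlap 7 were higher and 3 lower, against 13.2% and 14.8% of all genes tested. The inhibitor Cdkn1c was at 556 and 582 for wild type against 729 and 964 in V118M, higher without overlap, and Cdkn2a, a barrier to reprogramming in fibroblasts, was at 742 and 792 against 650 and 1500, high in V118M replicate 2 alone. The retinoblastoma gene Rb1 was at 1062 and 1048 against 1013 and 780 and its relative Rbl2 at 552 and 558 against 485 and 416, both lower without overlap. None of the 22 passed after adjustment, and Cdkn1c was the 1 gene with an unadjusted p under 0.05 (limma, 0.0298, adjusted p = 0.951).

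Mitosis genes and some markers of other cell types differed between the libraries as well. All 20 mitosis genes were higher in V118M, with a median of 0.51, and 19 were higher without overlap, against 13.2% of all genes tested. Birc5 (survivin) was at 186 and 192 against 331 and 472. An unadjusted p under 0.05 was found for 8 of the 20, against 2.31% of all genes tested in that direction, and the lowest adjusted p of the 20 was 0.894 (limma). The keratinocyte markers were higher in 8 of 12 and lower in 4, their summed values being 16868 and 15601 in wild-type libraries compared with 22513 and 23992 in V118M. Leukocyte markers were lower in 10 of 12, with sums of 999 and 884 against 675 and 696. The pan-leukocyte gene Ptprc, at 165 and 58 against 30 and 0, was the only 1 of them lower without overlap, where 14.8% of all genes tested were. Itgam was at 251 and 428 against 366 and 330, and Csf1r at 58 and 20 against 26 and 46, with log2 fold changes of 0.08 and 0.02. Fibroblast markers were higher in 9 of 14 and lower in 4, and the pluripotency markers that passed the filter were higher in 5 of 8, with sums of 190 and 246 against 320 and 301. The part of these cell types in the differences of the 57 genes was not tested.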

How the data were processed

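RNA-seq was measured in 4 libraries, 2 per group. Per the labels' protocols, TRIzol extraction preceded a TruSeq Nano RNA library kit. Bowtie2, RSEM, DESeq2, FastQC and the mm10 build stand in the submitters' processing notes with no role or version. The deposited values are a score per gene: whole numbers whose sorted columns were identical at 76.7% of ranks. They are therefore not counts, depth is unknown, shifts shared by most genes cannot be seen, and no counting interval is given.

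Scores were transformed as log2(value + 1). Genes reaching a value of 1 in 2 or more libraries were fitted across all genes with limma 3.58.1 in R 4.3.3 (trend and robust options, group as the only term), two-sided, with Benjamini-Hochberg adjustment over 19547 genes. Fold changes are V118M minus wild type and understate changes of low genes. The test was also run on simulated data, whose means and spreads were taken from these values. Changes planted there were larger than any log2 fold change of the replication and repair genes, and each gene varied on its own. The simulation therefore says nothing about changes of the size seen here. Gene coordinates, the longest transcript and its GC content came from GENCODE M21 (GRCm38, the assembly of mm10). The transcript the table lists for a gene was in several cases a short one (such as Brca2 and E2f7), so the longest annotated transcript was used. No source used here gives the strand setting. The trend on length and GC content was fitted with mgcv 1.9.3.

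The 57 genes and all lists were chosen with earlier results of these data known. Named were all 57, and of each other list the 2 highest and 2 lowest log2 fold changes where the text needs them. A result for 1 gene of the other repair factors is not reported here. Alternatives were a block on replicate number, pseudocounts of 0.1 and 5, array quality weights, a minimum value of 10 or none, the trend removal, and leaving out each library.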

Additional observations from a re-analysis of the deposited data

How the results depend on the processing

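No gene of the 57 passed an adjusted p of 0.05 (limma) under any of the 12 alternatives run. The number with an unadjusted p under 0.05 was 5; the share of all genes tested that passed in the same fit was 4.01% and follows each count in brackets. It was 2 with array quality weights (3.01%), 9 with the length and GC trend removed (5.21%), 8 with the replicate block (6.16%) and 10 with the block and the trend removal together (6.95%). Leaving out 1 library gave 0 to 8 such genes (1.16% to 26.8% of all genes), and 28 to 43 higher without overlap (21.5% to 43.0%). The cause was not tested. The replicate numbers come from the labels, which do not say that a number marks a shared culture. Across 12661 genes the replicate 1 minus 2 differences of the groups correlated at 0.303, and across the 57 genes at 0.661. Each group holds 1 library of each replicate number, so the block cannot change a log2 fold change or its direction. It changed no call among the 57. The median over the 57 genes was 0.13 to 0.34 when 1 library was left out.

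Pseudocounts turned the direction of 0 genes. A filter cannot change the log2 fold change of a gene that it keeps, and the array quality weights left the log2 fold changes as they were. Unchanged directions in those fits are therefore no sign of stability. With the length and GC trend removed, with or without the replicate block, Brca2 had a log2 fold change of 0.14. With 1 library left out, 20 results turned direction in at least 1 fit: the chromatin median ran from -0.04 to 0.30 and the E2F and cyclin E median from -0.05 to 0.41. For single genes the ranges were -0.03 to 0.16 (Orc1), -0.15 to 0.54 (Orc6), -0.07 to 0.32 (Mcm2), -0.01 to 0.22 (Dbf4), -0.08 to 0.62 (Pcna), -0.03 to 0.30 (Pola2), -0.42 to 0.62 (Pole), -0.19 to 0.44 (Uhrf1), -0.04 to 0.44 (Slbp), -0.04 to 0.33 (Chaf1b), -0.16 to 0.23 (E2f1), -0.11 to 0.38 (E2f2), -0.84 to 0.28 (E2f7), -0.32 to 0.64 (E2f8), -0.19 to 0.38 (Brca1), -0.43 to 0.38 (Brca2), -0.54 to 0.34 (Fanci) and -0.07 to 0.11 (Chek1). A lone library left in a group is assumed to vary like the other group.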
